A study of Mus musculus with 10 samples.

Results

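A set of 7 genes of intestinal calcium absorption and the vitamin D response was followed in mouse jejunal crypts with and without epithelial Arid3a. The genes were Trpv6, S100g, Atp2b1, Vdr, Rxra, Cyp24a1 and Calb2, taken by name from the 54838 genes listed in each library. 5 of the 7 had enough counts to be tested, and the other 2, Cyp24a1 and Calb2, had a count of 0 in all 10 libraries.

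RNA was sequenced from 5 WT mice and 5 Arid3a cKO mice, 1 library per animal. The cKO mice carried VillinCre-ERT2 and Arid3a fl/fl, so that tamoxifen removed Arid3a from Villin-expressing epithelial cells, and stromal and immune cells kept the gene. Animals of both genotypes received tamoxifen on 3 consecutive days and were culled 1 month after the first injection, and their ages are not given in the sources used here. The villi were scraped off the jejunum before crypts were released, and polyadenylated RNA was sequenced in bulk. The labels give each animal a colony number, and the WT and the cKO animals come from differently named colonies, so colony and genotype cannot be told apart. In bulk RNA a smaller number of cells of a type and less RNA per cell cannot be told apart either.

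Enterocytes take up calcium from the gut lumen through the channel Trpv6, carry it across the cell bound to calbindin-D9k, the product of S100g, and extrude it at the basolateral membrane through the plasma membrane pump Atp2b1. Active vitamin D drives this transcellular route by binding the receptor Vdr, which acts on DNA as a heterodimer with the retinoid X receptor, encoded by Rxra. Cyp24a1 degrades active vitamin D and is itself a classical target of the receptor, and the route is known to be most active in the proximal small intestine.

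The expected counts summed to between 27050455 and 28152743 per WT library and to between 28314069 and 31053622 per cKO library. Arid3a itself had 55, 60, 81, 80 and 74 counts in WT 1 to WT 5 and 9, 14, 14, 26 and 31 counts in cKO 1 to cKO 5. The groups did not overlap, and Arid3a was lower in cKO by the edgeR quasi-likelihood test (log2 fold change −1.84, SE 0.32, adjusted p = 0.00204). These are counts over the whole gene and include cells that do not express Villin. Of 14719 genes tested, 4167 differed at an adjusted p below 0.05, which is 28.3% of them, with 2298 higher in cKO (15.6%) and 1869 lower (12.7%). Without composition factors, scaling by library size alone moved the median log2 fold change of all genes from −0.03 to −0.16 and the share of higher genes among those called from 55.1% to 27.7%.

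Of the 5 calcium and vitamin D genes tested, S100g, Atp2b1 and Rxra rose in cKO crypts, and Trpv6 and Vdr did not pass the test. The background is the 15.6% of all tested genes that were higher. The log2 fold changes ran from 0.32 for Vdr to 2.42 for S100g with a median of 0.75, beside a median of −0.03 over all genes tested. All 5 values were positive under TMM factors and under each alternative that was run, scaling by library size alone included. The groups did not overlap for the same 3 genes, S100g, Atp2b1 and Rxra, while 19.6% of all tested genes had no overlap, 12.0% with cKO higher and 7.62% with cKO lower.

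**Figure D1:**
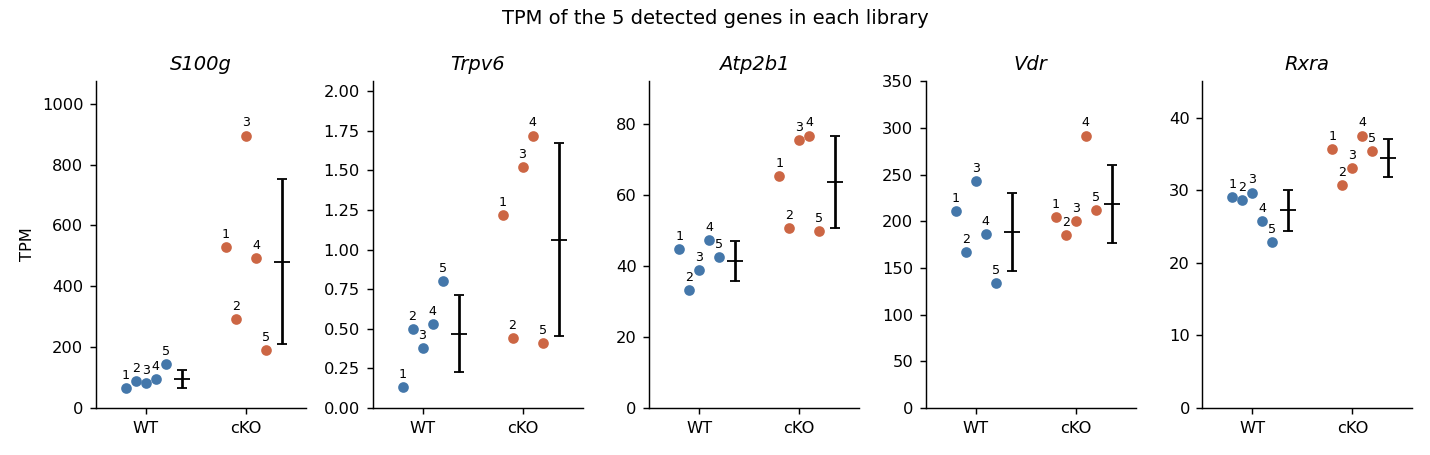
TPM of S100g, Trpv6, Atp2b1, Vdr and Rxra in each library, with WT libraries in blue, cKO libraries in orange, replicate numbers above the points, and the black bar showing the mean ± SD of 5 animals. The 5 vertical scales differ, and cKO points lie above every WT point for S100g, Atp2b1 and Rxra, while Trpv6 and Vdr overlap.

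Trpv6, the apical calcium channel, was detected in every library, but with few counts. Levels are given in TPM, which is corrected for gene length and library total and allows genes to be set beside each other. Trpv6 was at 0.13, 0.50, 0.38, 0.53 and 0.80 TPM in WT 1 to WT 5 and at 1.22, 0.44, 1.52, 1.72 and 0.41 TPM in cKO 1 to cKO 5. cKO 1, cKO 3 and cKO 4 lay above all WT libraries, and cKO 2 and cKO 5 lay within the WT range. These values rest on 8 to 52 counts per WT library and 26 to 111 counts per cKO library. The log2 fold change was 1.24 (SE 0.49, 95% confidence interval 0.11 to 2.38) and did not pass the edgeR test (adjusted p = 0.0794). The two-sided exact permutation test on log2(TPM + 0.5) gave p = 0.103 (adjusted p = 0.129 over the 5 genes). Under DESeq2 the log2 fold change was 1.26 with an adjusted p of 0.0334, and without WT 5 it was 1.59 with an adjusted p of 0.0451 in edgeR.

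S100g encodes calbindin-D9k, the small cytosolic protein that ferries calcium through the enterocyte. It was at 65.6, 86.9, 81.4, 94.6 and 145 TPM in WT 1 to WT 5 and at 528, 293, 896, 494 and 190 TPM in cKO 1 to cKO 5. Every cKO library was above every WT library. On the TPM scale the cKO libraries, whose mean was also higher, were spread more widely than the WT libraries. The mean was 94.7 ± 30.1 TPM in WT and 480.1 ± 271 TPM in cKO (SD, n = 5 each). The fitted difference was 5.34-fold, a log2 fold change of 2.42 (SE 0.43, 95% confidence interval 1.43 to 3.41, edgeR adjusted p = 0.00466). With the exact permutation test on log2(TPM + 0.5) p was 0.00794, the smallest value that 5 against 5 libraries can give (adjusted p = 0.0132). The same libraries were high or low for the channel and the binding protein. cKO 1, cKO 3 and cKO 4 were the 3 highest for both genes, and WT 1 was the lowest and WT 5 the highest WT library for both.

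S100g lies at chrX:162961992-162964599 on the minus strand of GRCm38 and has 3 exons in its only transcript. It sits inside Ctps2, which runs on the opposite strand, and no exon of the 2 genes overlaps. Ctps2, which encodes a CTP synthase, fell by 0.24 on the log2 scale (SE 0.05, adjusted p = 0.00812), opposite in sign to S100g. Trpv6 lies at chr6:41620624-41636405 on the minus strand and overlaps no other gene.

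RefSeq promoters on GRCm38.p6 were found for the 5 genes that were tested. The 250 bases before the start of S100g and of Trpv6 are shown because calbindin-D9k and the channel had the largest log2 fold changes of the 5 genes and were high in the same libraries. They cover chrX:162964600-162964849 and chr6:41636406-41636655, both read from the minus strand, 5′ to 3′. Capitals mark matches on either strand to the nuclear receptor half-site AGGTCA, to the HNF4 type sequence CAAAGTCCA and to the ARID3A type sequence ATTAAA.
S100g: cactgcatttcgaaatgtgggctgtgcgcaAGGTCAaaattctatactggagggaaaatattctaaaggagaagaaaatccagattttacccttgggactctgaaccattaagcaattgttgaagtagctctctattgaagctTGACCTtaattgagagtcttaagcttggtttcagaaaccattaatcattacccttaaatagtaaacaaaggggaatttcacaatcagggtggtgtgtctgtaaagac
Trpv6: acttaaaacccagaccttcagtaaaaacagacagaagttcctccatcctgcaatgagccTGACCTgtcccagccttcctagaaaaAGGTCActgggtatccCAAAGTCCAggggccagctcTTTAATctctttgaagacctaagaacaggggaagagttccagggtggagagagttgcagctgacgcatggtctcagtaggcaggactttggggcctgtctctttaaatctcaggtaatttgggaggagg

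The S100g promoter held AGGTCA from 220 to 215 bases before the start and its reverse complement from 107 to 102 bases before it. The Trpv6 promoter held the half-site from 191 to 186 and from 165 to 160 bases before the start, CAAAGTCCA from 149 to 141 and the reverse complement of ATTAAA from 129 to 124. AGGTCA occurred in 14% of the 32817 promoters of that length, CAAAGTCCA in 0.384% and ATTAAA in 12.7%. TATAAA, present in 12.4%, the CDX type sequence TTTATG, present in 10.8%, the HNF1 type sequence and the DR3 vitamin D response element were also searched on both strands, and none was in these windows of the 5 genes. The DR3 element is a pair of half-sites with a spacer of 3 bases and occurred in 0.0396% of promoters. The HNF1 type sequence, a palindrome of 2 half-sites, was searched only in its full form and occurred in 0.00914%. Sequences this rare are absent from almost every promoter, so their absence here cannot show that looser HNF1 or vitamin D receptor sites are missing. Looser forms of these 2 sequences were not searched. Of the other 3 genes, only the second of the Rxra promoters held a match, with a half-site from 87 to 82 and another from 48 to 43 bases before its start. A match is a stretch of letters and was not tested for binding. GC content was 38.4% in the S100g promoter, at the 9.06th percentile of all promoters, and 49.6% in the Trpv6 promoter, beside a median of 52.4%. The Atp2b1 promoters held 78.4% and 80.8% GC, the Vdr promoter 61.2%, and those of Rxra 81.2% and 55.2%.

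Atp2b1 encodes the plasma membrane calcium ATPase that exports calcium on the basolateral side, and lies at chr10:98914406-99026143 on the plus strand. Its levels were 44.8, 33.1, 38.8, 47.4 and 42.6 TPM in WT 1 to WT 5 and 65.4, 50.8, 75.5, 76.8 and 49.7 TPM in cKO 1 to cKO 5. All cKO libraries were above all WT libraries, with cKO 2 and cKO 5 nearest to them, as for Trpv6 and S100g. The rise was 1.68-fold, a log2 fold change of 0.75 (SE 0.12, edgeR adjusted p = 0.00147, exact permutation p = 0.00794 on TPM). The mean transcript length that RSEM assigned to Atp2b1 varied from 3811 to 4418 bases between libraries, with no difference past the test between genotypes (4130 ± 219 in WT, 4203 ± 156 in cKO, exact permutation p = 0.556).

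Vdr encodes the vitamin D receptor and lies at chr15:97854425-97910630 on the minus strand. It was the most abundant of the 7 genes in WT crypts, with 211, 168, 243, 187 and 134 TPM in WT 1 to WT 5 and 204, 186, 200, 292 and 212 TPM in cKO 1 to cKO 5. 4 of the 5 cKO libraries lay within the WT range, and only cKO 4 lay above it. The log2 fold change was 0.32 (SE 0.13, 95% confidence interval 0.01 to 0.62) with an edgeR adjusted p of 0.0938 and an exact permutation p of 0.278 on TPM. Without WT 3, the WT library with the highest Vdr level, the log2 fold change was 0.42 with an adjusted p of 0.0307. T cells also express Vdr. The summed level of 6 T cell markers ran from 29.2 to 80.9 TPM in WT and from 31.8 to 78.8 TPM in cKO, and none of the 6 passed the test between genotypes.

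Rxra, the gene of the heterodimer partner, lies at chr2:27676440-27762957 on the plus strand. It was at 29.1, 28.7, 29.7, 25.7 and 22.9 TPM in WT 1 to WT 5 and at 35.7, 30.8, 33.1, 37.6 and 35.4 TPM in cKO 1 to cKO 5. The groups did not overlap, but cKO 2, the lowest cKO library, was close to WT 3, the highest WT library. Rxra rose 1.35-fold, a log2 fold change of 0.43 (SE 0.07, edgeR adjusted p = 0.00188, exact permutation p = 0.00794 on TPM). Unlike S100g, Rxra was not low in cKO 5.

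Cyp24a1, at chr2:170482708-170497145, had no count in any library. A count of 0 allows up to 3 counts, which correspond to at most 0.113 CPM, counts scaled by the library total, in any of these libraries, and this limit covers counting error only. One of its exons overlaps exons of Pfdn4, a prefoldin subunit gene whose mean level was 15.8 CPM (SD 1.85) in WT libraries and 14.1 CPM (SD 1.82) in cKO libraries, and no read was assigned to Cyp24a1. Calb2, at chr8:110137502-110168210, encodes calretinin, a calcium-binding protein of neurons, and also had no count in any library. Vip, which marks enteric neurons, was at 0 in all libraries too. The summed level of the 10 enteric neuron markers was between 1.64 and 3.34 TPM in all libraries, and none of the 4 markers tested passed between genotypes.

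The order of the levels in WT crypts was Vdr, S100g, Atp2b1, Rxra and Trpv6. The places of S100g and Vdr changed between genotypes. S100g was above Vdr in 1 of 5 WT libraries and in 4 of 5 cKO libraries. All other pairs kept their order in each of the 10 libraries. By median TPM among all genes with a TPM above 0 in any library, which include many too low to be tested, S100g stood at the 94.9th percentile in WT and at the 98.98th in cKO, and Trpv6 at the 50.0th and the 57.2nd.

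Log2 ratios of pairs of genes within a library (TPM + 0.5) depend little on how libraries are scaled, and they were compared between genotypes for the 10 pairs of the 5 detected genes. The log2 ratio of S100g to each of the other 4 genes was higher in cKO, by 1.56 against Trpv6, 1.59 against Atp2b1, 1.97 against Vdr and 1.85 against Rxra. The exact permutation p was 0.00794 for the first 2 pairs, whose groups did not overlap at this pseudocount, and 0.0159 for the other 2, and the adjusted p was 0.0397 for all 4. For the 6 pairs without S100g the differences lay between −0.11 and 0.40 and none passed the test. The log2 ratio of Trpv6 to Atp2b1 differed by 0.03 (exact permutation p = 0.929). The pseudocount of 0.5 is as large as many Trpv6 values and understates its change. With a pseudocount of 0.1 the difference was 1.23 for S100g to Trpv6, with overlapping groups (exact permutation p = 0.0159, adjusted p = 0.0397), and 0.36 for Trpv6 to Atp2b1 (exact permutation p = 0.484). With 1 library left out, the differences of the 4 S100g ratios lay between 1.39 and 2.25 and their adjusted p reached at most 0.0595, from the 126 assignments that remain. No pair passed 0.05 without WT 1, WT 2, WT 3 or WT 4, and 2 pairs passed without cKO 1, cKO 2, cKO 3 or cKO 4.

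General markers of enterocytes, the absorptive cells that carry the calcium route, also differed between the genotypes. All 10 enterocyte markers rose in cKO, beside 15.6% of all tested genes, from 0.80 on the log2 scale for Vil1 to 2.06 for Apoa4, with a median of 1.68. Their summed level was between 1792 and 8147 TPM in WT and between 8169 and 15819 TPM in cKO, and was lowest in WT 3 and WT 4. Library by library the sum did not keep the order of S100g or of Atp2b1 within the cKO group. The sum was lowest among cKO in cKO 3 (8169 TPM), where S100g was highest, and 15736 TPM in cKO 5, where S100g and Atp2b1 were lowest. In cKO 4 both the sum (15819 TPM) and Atp2b1 (76.8 TPM) were at their highest. Of 5 Paneth cell markers 4 fell, beside 12.7% of all tested genes. The sum of the 5 markers was lower in every cKO library (6031 to 8737 TPM) than in every WT library (9142 to 17047 TPM). The part of these cells in the calcium gene results was not tested. With WT 3 and WT 4 both left out, a choice made after seeing the data, S100g (log2 fold change 2.30, adjusted p = 0.0455), Atp2b1 (0.77, adjusted p = 0.0125) and Rxra (0.41, adjusted p = 0.0102) still differed in edgeR.

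Each gene was therefore also expressed relative to the mean of the 10 enterocyte markers of the same library, on a log2(CPM + 0.5) scale. All 10 markers rose in cKO, with a median of 1.68, so a gene that rose less than their mean is lower on this scale. Vdr and Rxra themselves had positive log2 fold changes of 0.32 and 0.43. Relative to the markers Vdr was lower in cKO by −1.45 (SE 0.43) and Rxra by −1.34 (SE 0.36). Each had an exact permutation p of 0.0159 and an adjusted p of 0.0397 over the 5 genes. The difference was −1.05 (SE 0.47, adjusted p = 0.132) for Atp2b1, −0.89 (SE 0.63, adjusted p = 0.248) for Trpv6 and 0.50 (SE 0.66, adjusted p = 0.508) for S100g. S100g was the only 1 of the 5 with a positive value, and it did not pass the test. With 1 library left out, Vdr differed by −1.73 to −1.19 and Rxra by −1.56 to −1.10, with an adjusted p of at most 0.0595 for both. No gene passed 0.05 when cKO 1, cKO 2, cKO 4 or cKO 5 was left out, and up to 3 passed when another library was left out.

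**Figure D2:**
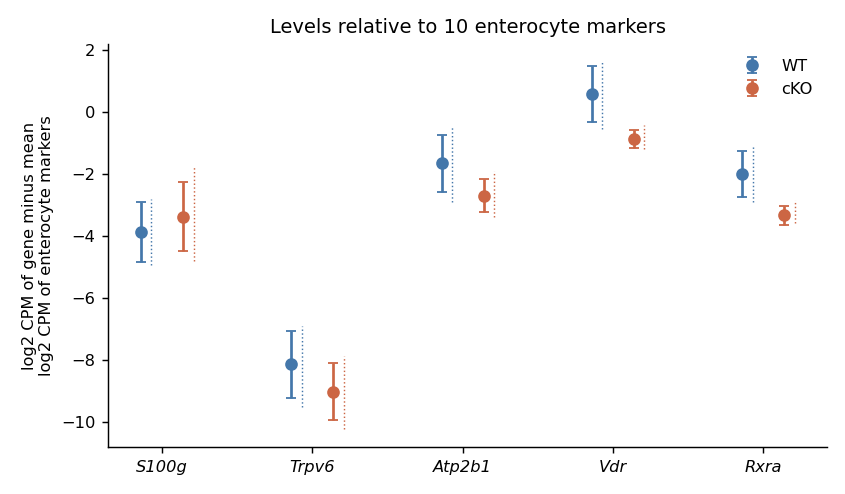
Level of each gene relative to 10 enterocyte markers, as log2 CPM of the gene minus the mean log2 CPM of the markers in the same library, with points and bars showing the mean ± SD of 5 WT (blue) or 5 cKO (orange) libraries and dotted lines the range. Vdr and Rxra lie lower in cKO by 1.45 and 1.34 log2 units, and the ranges of S100g overlap widely.

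The jejunum lies between regions with high and low calcium absorption, and markers of region were read beside S100g. Of 5 proximal markers only Slc40a1, the iron exporter ferroportin, rose, from 16.4, 13.2, 20.2, 12.3 and 16.9 TPM in WT 1 to WT 5 to 79.8, 35.3, 80.4, 54.2 and 22.6 TPM in cKO 1 to cKO 5 (log2 fold change 1.91, SE 0.35, adjusted p = 0.00492). Gata4, the transcription factor that marks duodenum and jejunum, had a log2 fold change of 0.00 (SE 0.06). Pdx1, a transcription factor of the duodenum, had 0.19 (SE 0.20, adjusted p = 0.493), with 20.7, 19.2, 30.9, 30.5 and 25.2 TPM in WT 1 to WT 5 and 32.7, 23.0, 33.3, 30.6 and 15.8 TPM in cKO 1 to cKO 5. Within the cKO group Slc40a1, Pdx1 and S100g ranked the libraries in the same order, from cKO 3 through cKO 1, cKO 4 and cKO 2 down to cKO 5. These 2 markers are shown because they move with S100g, and the library order of the remaining proximal markers is not given here. The WT libraries did not share an order for S100g and Pdx1, nor for S100g and Slc40a1. Slc40a1 was highest in WT 3 and lowest in WT 4, while S100g was highest in WT 5 and lowest in WT 1. None of the 3 distal markers tested passed, and Fgf15, a marker of the ileum, was at 0 in all libraries. The part of intestinal position in the level of S100g was not tested.

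**Figure D3:**
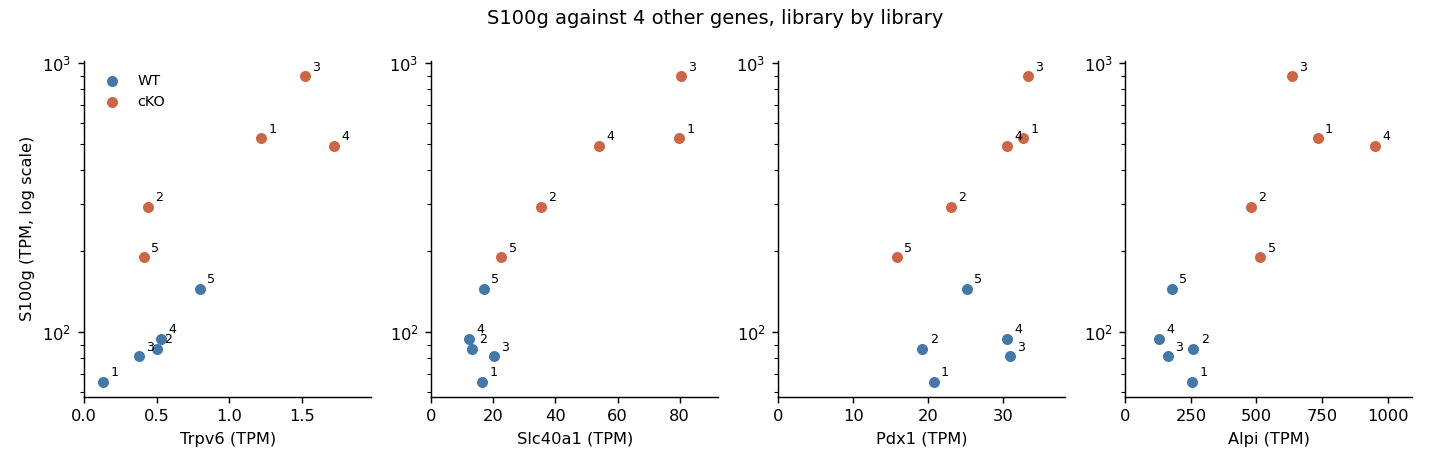
S100g level (TPM, log scale) of each library against the levels of Trpv6, Slc40a1, Pdx1 and Alpi (TPM), with WT in blue, cKO in orange and replicate numbers beside the points. Within the cKO group Slc40a1 and Pdx1 follow the order of S100g from cKO 5 to cKO 3, and within WT neither does. The Pdx1 values of the 2 groups overlap.

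The rest of the pathway was described with 75 further genes in 8 lists, of which 58 were tested. 16 of the 58 were higher in cKO, which is 27.6% beside 15.6% of all tested genes, and 0 were lower, beside 12.7%. With library sizes alone 12 were higher and 8 lower, where 10.5% of all tested genes were higher and 27.4% lower. Without WT 3 and WT 4 10 were higher and 0 lower, where 9.77% of all tested genes were higher and 4.45% lower. The median log2 fold change of the 58 genes was 0.16.

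Of 5 other targets of the vitamin D receptor that were tested, 3 rose, which is 60% beside 15.6% of all tested genes. The list name does not exclude other regulators, and the paper treats Slc30a10 as a target of HNF4. Whether vitamin D had a part in these changes was not tested. Slc30a10, a manganese exporter, rose from 2.85, 2.30, 1.34, 0.87 and 1.72 TPM in WT 1 to WT 5 to 9.93, 6.33, 12.2, 12.2 and 5.12 TPM in cKO 1 to cKO 5. The groups did not overlap (log2 fold change 2.41, SE 0.36, adjusted p = 0.00206), and as for S100g the lowest cKO library was cKO 5. Cyp3a11, a drug and steroid hydroxylase, rose from 95.3 ± 61.2 TPM to 401 ± 134 TPM (log2 fold change 2.15, SE 0.45, adjusted p = 0.00907), and its count is uncertain because close relatives share its sequence. Abcb1a, a drug efflux pump, rose from 21.7 ± 6.77 TPM to 47.7 ± 6.98 TPM (log2 fold change 1.23, SE 0.19, adjusted p = 0.00188). The other 2 did not pass. Cldn2, a claudin that lets calcium pass between cells, had a log2 fold change of −0.40 (SE 0.14, adjusted p = 0.0541).

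Genes of vitamin D uptake and metabolism were split, with 2 of 4 tested higher (50%, beside 15.6% of all tested genes). Cyp27a1, a hydroxylase of sterols and vitamin D, had 8.71, 10.02, 7.23, 4.98 and 6.86 TPM in WT 1 to WT 5 and 15.5, 12.4, 9.09, 24.8 and 25.2 TPM in cKO 1 to cKO 5 (log2 fold change 1.39, SE 0.28, adjusted p = 0.00583). Cubn, the cubilin receptor that takes up carrier-bound vitamins, had 2.45, 2.89, 0.66, 0.62 and 1.08 TPM in WT and 3.96, 6.58, 2.46, 8.90 and 12.2 TPM in cKO libraries in the same order (log2 fold change 2.22, SE 0.59, adjusted p = 0.0222). Both were highest in cKO 5 and lowest among cKO in cKO 3, the reverse of S100g in these libraries. The Cubn call was lost without WT 5 (log2 fold change 2.14, adjusted p = 0.0504), without cKO 5 (1.89, adjusted p = 0.0563) and without WT 3 and WT 4 together (1.73, adjusted p = 0.1004).

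Of 12 other receptors that pair with RXR, 5 rose (41.7%, beside 15.6% of all tested genes). Nr1i3, the xenobiotic receptor CAR, rose from 12.1 ± 5.12 TPM to 24.6 ± 2.76 TPM (log2 fold change 1.07, SE 0.24, adjusted p = 0.00935). Nr1i2, the pregnane X receptor, rose from 31.2 ± 5.05 TPM to 46.4 ± 8.29 TPM (0.66, SE 0.14, adjusted p = 0.0061). Nr1h4, the bile acid receptor, had a log2 fold change of 0.62 (SE 0.19, adjusted p = 0.0336). Its call was lost when WT 1 (adjusted p = 0.0598), WT 3 (0.0761), WT 4 (0.057), cKO 1 (0.0793) or cKO 5 (0.0859) was left out, and without WT 3 and WT 4 together the log2 fold change was 0.36 (adjusted p = 0.119). The other 2 of the 5, Ppara (0.50) and Nr1h3 (0.48), are named after their values were seen, as are the genes of the next paragraph. None of the 8 coregulators and other RXR genes tested passed, and their log2 fold changes lay between −0.25 and 0.11.

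**Figure D4:**
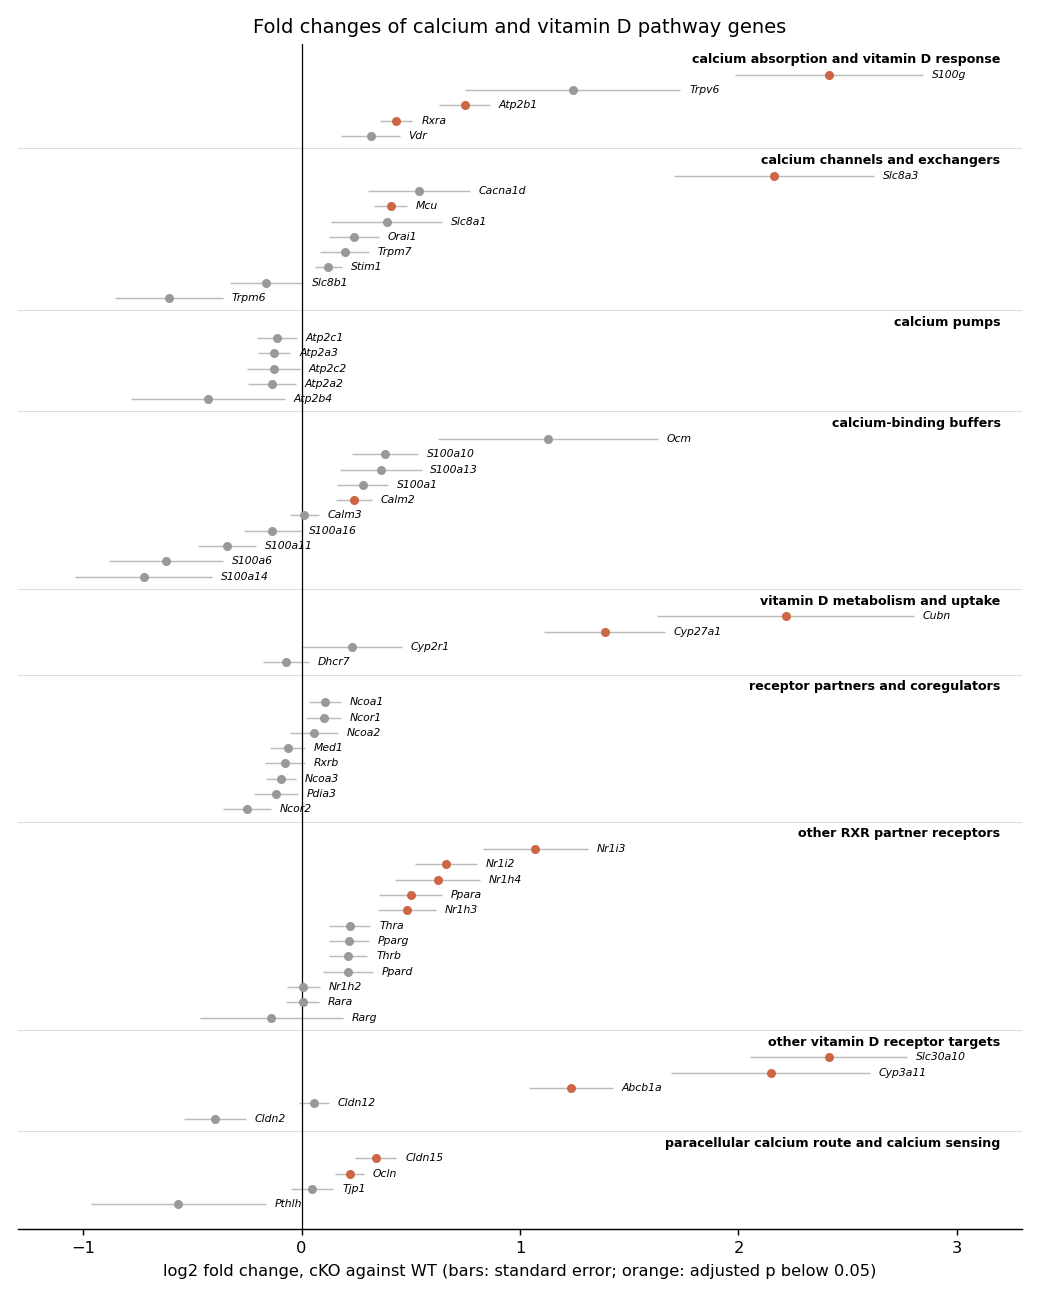
Log2 fold change of cKO against WT for tested genes of calcium absorption, the vitamin D response and 8 further lists, with bars showing the standard error and orange points an edgeR adjusted p below 0.05 over all genes. Points past the threshold lie right of 0, the largest being S100g at 2.42 and Slc30a10 at 2.41, and the 5 calcium pumps lie between −0.43 and −0.11.

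None of the 5 further calcium pumps tested passed, with log2 fold changes from −0.43 for Atp2b4 to −0.11 for Atp2c1, beside 0.75 for Atp2b1. Of 9 channels and exchangers 2 rose, which is 22.2%, near the 15.6% of all tested genes. They were the mitochondrial calcium uniporter Mcu (log2 fold change 0.41, SE 0.08, adjusted p = 0.00296) and the sodium calcium exchanger Slc8a3 (2.16, SE 0.46, adjusted p = 0.00564), the latter at no more than 0.26 TPM in any library. Of 11 calcium-binding buffers 2 were higher (18.2%, also near that share), among them Calm2 (0.24, adjusted p = 0.049). Calb1 and Pvalb had no count in any library and were not tested. In the paracellular and sensing list Cldn15 (0.34, adjusted p = 0.0203) and Ocln (0.22, adjusted p = 0.027), both of tight junctions, were higher among 4 genes tested (50%).

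The genes most alike in pattern were taken by Pearson's r of log2 CPM over the 10 libraries, which includes the difference between the 2 genotypes and is given as a description. For S100g they were Bmx (r = 0.97), Slc40a1 (0.96) and Ugt2b38 (0.95), and Bmx lies 1.23 Mb from S100g on chromosome X. For Trpv6 they were Scarb1 (0.93), Chd9 (0.89) and Tusc3 (0.87). Atp2b1 was most like Akp3 (0.98), Ugt2b38 (0.98) and Ncoa4 (0.97). Vdr was most like Hdac5 (0.97), Mtus1 (0.96) and Zmiz1 (0.95), and Rxra most like Ppargc1a, Sidt2 and Ctns, each at 0.99. Ugt2b38 was the only gene named for more than 1 of the 5 genes.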

How the data were processed

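Per the labels and the study's methods, the authors aligned the reads with STAR to GRCm38 and quantified genes with RSEM. Each deposited file gives the expected count of every gene in 1 library, without normalization between libraries, and the TPM, which is scaled to gene length and library. The deposited length of a gene is its abundance-weighted transcript length. The strand setting is not given in the sources used here. All 7 genes had whole expected counts (tolerance 0.005) in every library, except Atp2b1 in 1 library.

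Expected counts were rounded and tested in edgeR 4.0.16 (R 4.3.3) with filterByExpr (minimum count 10), TMM factors and the robust quasi-likelihood test of genotype over 14719 genes, with Benjamini-Hochberg adjustment and a threshold of 0.05. The study's own model, in DESeq2, also held time, for which these libraries have 1 value. For single values, exact permutation tests (two-sided, 252 assignments, pseudocount 0.5) were run. Errors are SD over 5 animals or SE of the fit. The smallest chi-square per degree of freedom between 2 libraries was 14.4, so no 2 libraries agreed within counting noise. In simulated data for this comparison with 14528 genes, 72 of 100 genes changed by 1 and 91 of 100 changed by 2 on the log2 scale were called, in 1 simulation with 8 false calls.

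The 7 genes and all lists were chosen with earlier results of these data known. The pathway genes named were, in each direction, the 8 most changed genes by log2 fold change that passed the test and averaged 1 CPM or more, and for likeness the 3 genes of at least 5 CPM with the highest r. Gene loci are from GENCODE M21, and symbols were found for 54723 of 54838 identifiers. Some genes of these lists are counted but not reported here by name. Alternatives were other scaling, DESeq2 1.42.0, limma-voom (limma 3.58.1), other filters, effective length, a replicate block, 1 surrogate variable (sva 3.50.0), other pseudocounts and leaving out single libraries.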

Additional observations from a re-analysis of the deposited data

Results flagged for a closer look

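S100g in WT 5 was at 46.9 CPM, and the next highest WT library, WT 2, was at 26.6 CPM. This gap is 0.723 of the whole range of the 5 WT libraries, above the limit of Dixon's test for 5 values. It was the only one past the limit of 26 gene and group combinations examined, and chance flags about 1 in 20. Without WT 5 the log2 fold change of S100g was 2.69.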

How the results depend on the processing

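S100g, Atp2b1 and Rxra stayed past the threshold under every alternative run, and the sign of the log2 fold change was kept in 99 of 99 values of the 5 genes. Leaving out single libraries gave 2.05 to 2.69 for S100g, 1.00 to 1.59 for Trpv6, 0.68 to 0.83 for Atp2b1, 0.22 to 0.42 for Vdr and 0.39 to 0.47 for Rxra. Trpv6 passed under DESeq2 (1.26) and without WT 5, and Vdr passed without WT 3, and the cause was not tested. Trpv6 could not be tested with at least 10 counts required in every sample, since WT 1 had 8.

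Genes lower in cKO numbered 1869, and 4030 with library size only, 1188 with the replicate block and 670 without WT 3 and WT 4, which also left 2142 genes differing and 1472 higher. Pathway genes lower numbered 0, and 8 with library size only and 1 each with DESeq2, with at least 10 counts in every sample and with the replicate block, and pathway genes higher numbered 10 without WT 3 and WT 4. Leaving out single libraries gave 3007 to 4684 genes differing, 1131 to 2112 lower (lowest without WT 4), 10 to 20 pathway genes higher (lowest without cKO 5) and 0 to 3 lower (highest without WT 1). It also gave 0 to 4 of the 10 gene pairs and 0 to 3 of the 5 genes relative to enterocyte markers past the threshold.

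Same-numbered WT and cKO libraries did not deviate together (r from −0.16 to 0.13, and 0 of 5 matched best with its own number). The replicate block gave 3048 genes differing, and of the named genes only Cubn (2.27, adjusted p = 0.0555) lost its call under it. Cubn (2.21, adjusted p = 0.0569) and Nr1h4 (0.62, adjusted p = 0.0974) also lost their calls with no filter on low counts. Depth limits Trpv6, at 8 to 111 counts, and a count of 0 for Cyp24a1 and Calb2 gives no fold change under any setting.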

Other observations

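Among markers of cell types not set beside the calcium genes above, 3 of 8 enteroendocrine markers and 3 of 5 tested tuft cell markers rose, beside 15.6% of all tested genes. Median log2 fold changes were 0.43 and 0.21 over the markers tested. The summed levels overlapped, at 237 to 287 TPM in WT and 286 to 441 TPM in cKO for enteroendocrine and 28.2 to 40.1 and 30.5 to 39.6 TPM for tuft markers. By staining, the paper found minimally fewer CHGA-positive cells in cKO, a count of cells and not of RNA. None of 6 goblet cell markers and none of 5 myeloid markers passed the test. 2 of 3 tested mesothelium markers, 1 of 8 fibroblast and smooth muscle markers and the only endothelium marker tested, Pecam1 (log2 fold change −1.19, SE 0.28, adjusted p = 0.00984), were lower in cKO. Of all tested genes 12.7% were lower.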
